A study of Mus musculus with 11 samples.

Results

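The dual-specificity phosphatases that act on MAP kinases were followed in the mouse hippocampus, a forebrain region central to memory. The 10 genes were taken by symbol (Dusp1, Dusp2, Dusp4, Dusp5, Dusp6, Dusp7, Dusp8, Dusp10, Dusp14 and Dusp16), and all 10 were found among the 30681 genes of the count table and passed the filter on low counts that left 16587 genes. They were selected on measured values, with the genotype difference in these same counts already known, above all that of Dusp1. That difference is therefore given for them as a description and is not tested.

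The series compared polyadenylated RNA from the hippocampus of mice with a conditional knockout of Dclk3, a doublecortin-like kinase gene (cKO, 6 libraries), with that of wild-type mice (WT, 5 libraries), all aged 6 months and each library made from 1 hippocampus. The sources used here do not give the recombinase, the cells it acts in or the strain. Since the labels do not say that libraries came from separate animals, a p-value here measures no more than the spread between libraries, which may be technical.

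MAP kinases (ERK, JNK and p38) are switched on by phosphorylation of a threonine and a tyrosine in 1 short loop, and the phosphatases of this family remove both phosphates. Most carry a domain that docks on the kinase beside the catalytic domain. Several are themselves transcribed in response to the pathway they switch off, which makes them feedback inhibitors and, in neurons, early-response genes. By place and preference they fall into inducible nuclear enzymes (Dusp1, Dusp2, Dusp4, Dusp5), cytoplasmic enzymes that prefer ERK (Dusp6, Dusp7) and enzymes that prefer JNK and p38 (Dusp8, Dusp10, Dusp16). Dusp14 is a small relative without the docking domain.

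Some facts of the libraries bear on every value below. The total count was 24001828 to 35674490 per library. Dclk3 itself had 15.4 to 25.7 CPM (counts relative to the scaled total of the library) among cKO-labelled libraries and 19.6 to 28.1 CPM in WT, a log2 fold change of -0.15 ± 0.12 (SE), so the groups are called by their labels. Xist and genes of the Y chromosome such as Ddx3y showed 3 female libraries, WT replicates 1, 3 and 4, and 8 male ones, namely WT replicates 2 and 5 and the 6 labelled cKO. Sex and genotype are therefore partly confounded, and the difference of each phosphatase is also given for the 8 male libraries. All 16 markers of dentate granule, CA1, CA2 and CA3 cells were detected, each at a mean of 18.1 CPM or more.

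The upstream sequences of 4 members are shown because they carry, or lack, the motifs through which activity-dependent factors are known to act: the cyclic AMP response element (CRE) bound by CREB, and the CArG box bound by the serum response factor. They are RefSeq promoter windows of the build GRCm38.p6, on the strand of the gene, from base 250 to base 51 before the RefSeq start, with CRE and CArG matches in capitals. They are Dusp1 at chr17:26508523-26508722 on the minus strand, Dusp5 at chr19:53528895-53529094 on the plus strand, Dusp8 at chr7:142095335-142095534 on the minus strand and Dusp6 at chr10:99262981-99263180 on the plus strand.
Dusp1: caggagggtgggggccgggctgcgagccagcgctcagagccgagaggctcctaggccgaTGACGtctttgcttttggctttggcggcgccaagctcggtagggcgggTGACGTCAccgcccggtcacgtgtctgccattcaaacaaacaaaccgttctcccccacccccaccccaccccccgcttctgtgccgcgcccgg
Dusp5: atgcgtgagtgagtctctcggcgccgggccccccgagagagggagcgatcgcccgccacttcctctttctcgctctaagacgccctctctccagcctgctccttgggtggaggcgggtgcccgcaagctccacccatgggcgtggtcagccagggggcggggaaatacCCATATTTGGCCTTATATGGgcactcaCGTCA
Dusp8: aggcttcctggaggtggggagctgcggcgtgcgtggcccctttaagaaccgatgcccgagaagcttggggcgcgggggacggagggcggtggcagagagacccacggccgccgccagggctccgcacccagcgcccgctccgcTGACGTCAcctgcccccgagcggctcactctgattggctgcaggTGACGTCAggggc
Dusp6: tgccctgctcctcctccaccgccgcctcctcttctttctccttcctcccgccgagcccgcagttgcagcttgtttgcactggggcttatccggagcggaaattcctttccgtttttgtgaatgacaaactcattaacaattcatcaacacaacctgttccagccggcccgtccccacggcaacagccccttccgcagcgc

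Dusp1 held 1 full CRE (TGACGTCA) at bases 143 to 136 before the start and a separate short CRE (TGACG) at bases 191 to 187. Dusp8 held 2 full CREs, at bases 107 to 100 and 63 to 56. Dusp5 held 2 CArG boxes side by side, at bases 82 to 73 and 72 to 63, and 1 short CRE on the other strand, printed as CGTCA at the end of the window. In the Dusp6 window none of these letters was found. Of the 9 members with a window (Dusp4 had none in the table used), 2 held a full CRE, 4 a short CRE (which each full CRE contains on both strands), 1 a CArG box, 1 an EGR motif (GCGTGGGCG or GCGGGGGCG, Dusp2) and 0 an AP-1 motif (TGAGTCA or TGACTCA). Among 32817 windows of the same 200 bases, searched on both strands, the shares were 0.829% for the full CRE, 12.7% for the short CRE, 1.16% for the CArG box, 1.95% for the EGR motif and 3.61% for AP-1. A GC box (GGGCGG) was in 6 of the 9 member windows and in 24.6% of all windows. The windows were not matched for base composition. Their median GC content was 51.5%, while the member windows had 58% to 77.5%. The shares are therefore no matched reference for any of these motifs, the CRE included. A match describes letters in a window and is no evidence of binding. All 200 bases of the Dusp5 window lie in annotated exons, and an antisense gene (AC137853.2) shares 547 exon bases with Dusp5. The sources used here do not say whether counting used the strand, so the Dusp5 count may hold reads of that gene.

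The genes differ in build. In the coding transcript with the longest reading frame, Dusp1 spans 2930 bases with 4 exons (chromosome 17, 26505590 to 26508519, mm10) and Dusp2 spans 2218 bases with 4 exons (chromosome 2, 127336159 to 127338376). Of the 14534 protein-coding genes tested, 5.33% and 3.18% span fewer bases. Dusp6 spans 4258 bases with 3 exons (chromosome 10, 99263231 to 99267488) and Dusp7 7093 bases with 3 exons (chromosome 9, 106368632 to 106375724). Dusp4 (chromosome 8, 34807297 to 34819894) and Dusp5 (chromosome 19, 53529109 to 53542431) have 4 exons each over 12598 and 13323 bases. Of the enzymes that prefer JNK and p38, Dusp8 spans 15783 bases (chromosome 7, 142079490 to 142095272), Dusp10 41256 bases (chromosome 1, 184034381 to 184075636) and Dusp16 77153 bases (chromosome 6, 134715473 to 134792625). Dusp14 (chromosome 11, 84048041 to 84068801) has a single coding exon of 198 codons, against 318 to 663 codons in the other 9. The median span of the genes tested was 23482 bases, with 9 exons.

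The levels of the 10 transcripts, compared as CPM per kb of merged exons, ran over more than 2 orders of magnitude. Dusp8 was the most abundant, at 40.5 ± 1.46 CPM per kb in WT and 39.8 ± 0.938 in the cKO-labelled libraries (SD, n = 5 and 6), and made 39.1% of the summed level of the 10 genes. The cytoplasmic ERK phosphatases followed, Dusp6 with 17.6 ± 2.67 CPM per kb and Dusp7 with 15.1 ± 0.592 in WT (SD, n = 5). Their ranges overlapped over the 11 libraries, so their order does not stand out from the spread. Dusp14 came next at 9.90 ± 0.731 CPM per kb in WT. Dusp4, Dusp5 and Dusp1, the inducible nuclear enzymes, had 6.63 ± 0.876, 7.02 ± 1.21 and 5.42 ± 0.859 CPM per kb in WT (SD, n = 5), with ranges that overlapped between neighbours. In the cKO-labelled libraries these 3 levels were 6.39 ± 0.828, 5.70 ± 1.16 and 3.43 ± 0.318 CPM per kb (SD, n = 6). By merged exons Dusp1 thus lay further below Dusp4 and Dusp5 there than in WT. The place of Dusp1 depends on the length taken. Its merged exons hold 3311 bases and its longest transcript 2313, while Dusp4 and Dusp5 have 2740 and 2473 by both. Per kb of longest transcript, the WT mean of Dusp1 lies above those of Dusp4 and Dusp5. Dusp16 and Dusp10 had mean levels of 1.79 and 1.19 CPM per kb over the 11 libraries. Dusp2, known mainly from lymphocytes, was lowest at 0.262 CPM per kb, which rested on 8 to 24 reads per library, so little can be said of it at this depth. The ranges over the 11 libraries did not overlap between Dusp8 and Dusp6, Dusp7 and Dusp14, Dusp1 and Dusp16, or Dusp10 and Dusp2, and they overlapped for the other 5 pairs of neighbours. Compared within each library per kb of merged exons, Dusp14 was nonetheless above Dusp4, Dusp5 above Dusp1 and Dusp16 above Dusp10 in all 11. Per kb of longest transcript, however, Dusp1 lies above Dusp5 in some libraries, such as WT replicate 3 (21.7 and 18.2 CPM before division by length). The order of Dusp6 and Dusp7, and of Dusp4 and Dusp5, changed between libraries.

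**Figure D1:**
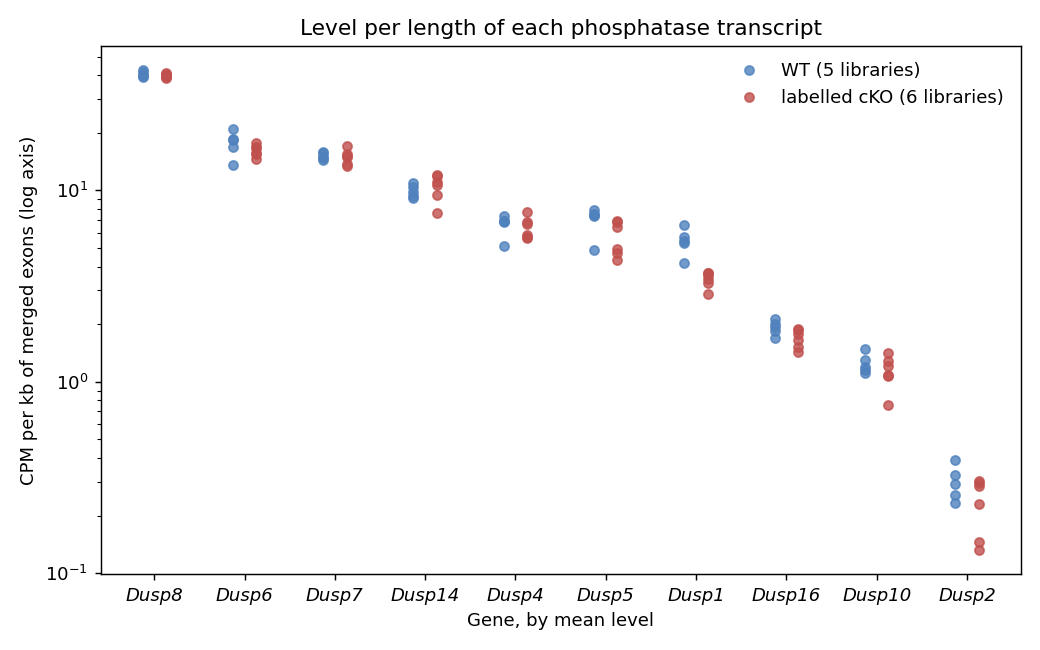
Level of each phosphatase transcript in CPM per kb of merged exons (log axis), 1 point per library, WT in blue and labelled cKO in red. Dusp8 lies above all others near 40 CPM per kb, Dusp2 lies below all others, and Dusp1 is the gene whose red and blue points separate.

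Dusp1 (ENSMUSG00000024190), which acts on p38, JNK and ERK in the nucleus, showed the widest gap between the labelled genotypes. Its values were 12.2, 11.9, 10.8, 11.4, 12.3 and 9.53 CPM in replicates 1 to 6 labelled cKO and 17.95, 18.8, 21.7, 17.5 and 13.8 CPM in WT replicates 1 to 5. Every cKO value was lower than the lowest WT value, and WT replicate 5 was the nearest to them. The means were 11.4 ± 1.05 and 17.9 ± 2.84 CPM (SD, n = 6 and 5). The fitted log2 fold change was -0.66 ± 0.10 (SE), or 0.633-fold with a 95% interval of 0.549 to 0.729. In the 8 male libraries it was -0.52 ± 0.12 (SE), with WT represented by 18.8 and 13.8 CPM alone.

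Markers of other cells were summed as well, and only the astrocyte sums did not overlap between the labelled groups. The oligodendrocyte markers summed to 4489 to 6185 CPM among cKO-labelled libraries and 4774 to 5758 CPM in WT. Those of interneurons summed to 612 to 839 and 661 to 732 CPM. Endothelial, choroid plexus and red blood cell sums overlapped too. The summed level of 6 astrocyte markers was 7974 to 9997 CPM among cKO-labelled libraries and 6401 to 7591 CPM in WT, with 6 of 6 higher. The 7 microglial markers summed to 629.9 to 965 and 635 to 712 CPM, with 7 of 7 higher. The 5 thalamic markers summed to 35.9 to 47.3 and 45.2 to 56.8 CPM, with 4 of 5 lower. The 7 meningeal fibroblast markers summed to 97.3 to 185.5 and 122.5 to 187 CPM, with 6 of 7 lower. The 6 markers of pericytes and smooth muscle summed to 98.9 to 115.5 and 104.7 to 141.4 CPM, with 5 of 6 lower. No marker was at 0 in all libraries. Their part in the values of Dusp1 was not tested. In bulk tissue, fewer cells of a type and less RNA per cell cannot be told apart.

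In the whole table edgeR's quasi-likelihood test called 0 of 16587 genes at an adjusted p under 0.05 (0%), and it called 0 of the 10 members. At an unadjusted p under 0.05 it had 1524 genes (9.19%), of which 887 were lower in the cKO-labelled libraries (5.35%) and 637 higher (3.84%). Of the members 2 were among these, Dusp1 and Dusp16, both lower, and 0 were higher. DESeq2 called 67 of the 13682 genes to which it gave an adjusted p (0.49%), of which 37 were lower (0.27%), and it gave none to Dusp2. The only member among them was Dusp1. Leaving out WT replicate 5 gave 14 edgeR calls, each of a lower gene (0.0836%), with Dusp1 as the only member. The groups did not overlap, with the lower values in cKO, for 85 genes (0.512%), among the members only for Dusp1. Since the members were chosen with this contrast known, nothing is read from these counts. The median log2 fold change of the 10 was -0.13, beside 0.00 over all genes tested, and 9 of the 10 had a lower value, beside 50% of all genes. In the 8 male libraries 7 of the 10 had a lower value and the median was -0.10.

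**Figure D2:**
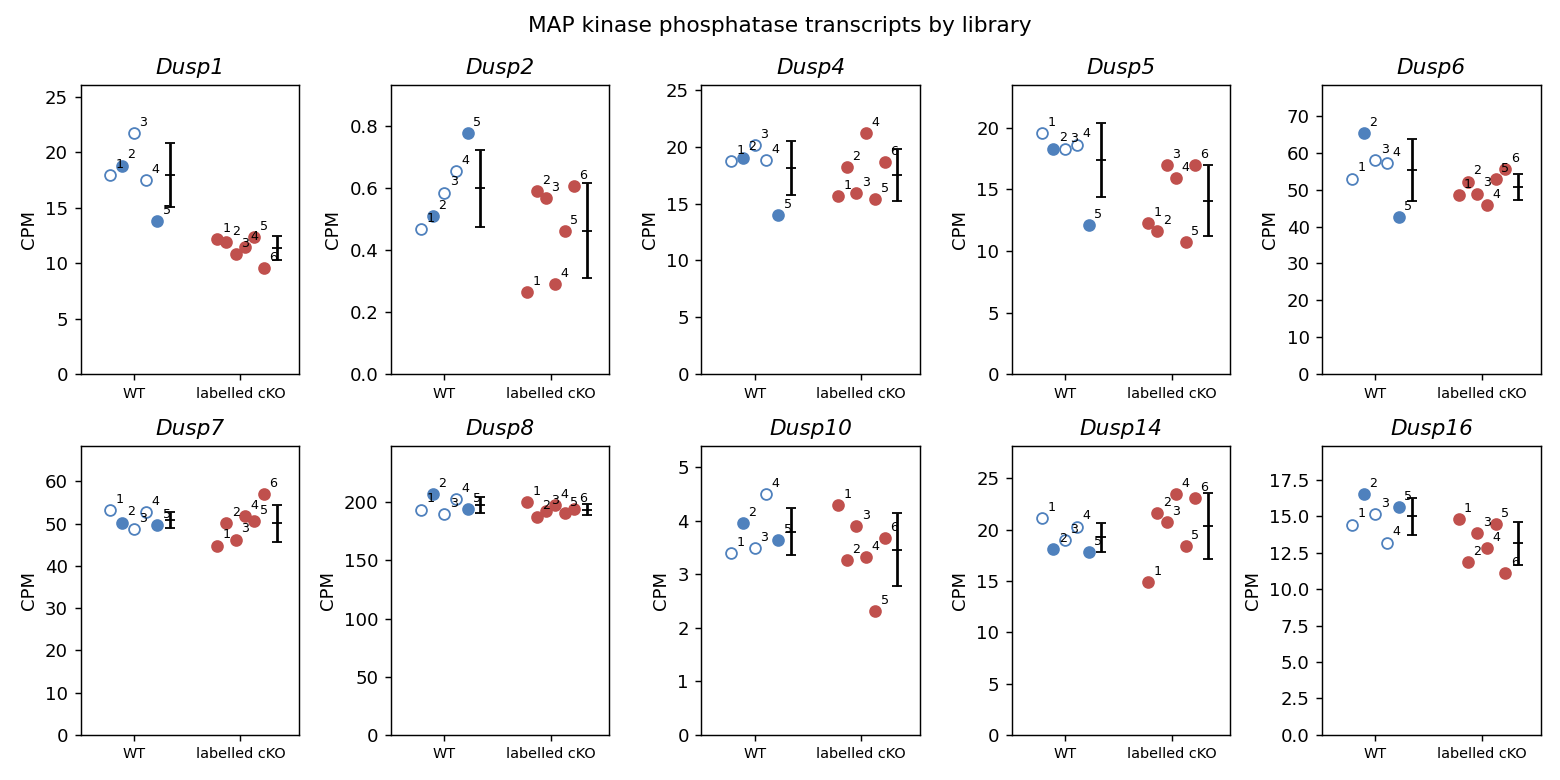
CPM of each gene in every library (numbers are replicates, open circles are female libraries by Xist, filled circles male), with the mean and SD of each group at its right. For Dusp1 all 6 points labelled cKO lie below the WT points, and WT replicate 5 is the lowest WT point for Dusp1, Dusp4, Dusp5, Dusp6 and Dusp14.

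The other inducible nuclear enzymes overlapped between the groups. Dusp5 (ENSMUSG00000034765), which acts on ERK alone, had 12.3, 11.6, 17.0, 15.9, 10.7 and 17.0 CPM in replicates 1 to 6 labelled cKO and 19.6, 18.3, 18.2, 18.6 and 12.1 CPM in WT replicates 1 to 5. The labelled cKO libraries split into 3 near 11 to 12 CPM and 3 near 16 to 17 CPM, and WT replicate 5 stood with the lower ones. The log2 fold change was -0.30 ± 0.15 (SE), and -0.10 ± 0.21 (SE) in the 8 male libraries. Dusp4 (ENSMUSG00000031530), which acts on ERK, JNK and p38, had 15.7, 18.2, 15.9, 21.2, 15.4 and 18.7 CPM among cKO-labelled libraries and 18.7, 19.05, 20.2, 18.9 and 13.98 CPM in WT. The highest and the lowest of the 11 values were replicate 4 labelled cKO and WT replicate 5. Its log2 fold change was -0.05 ± 0.10 (SE) over all libraries and 0.09 ± 0.14 (SE) in the male ones, so its sign differed between these fits. Dusp2 had 0.264 to 0.607 CPM among cKO-labelled libraries and 0.467 to 0.778 CPM in WT, with a log2 fold change of -0.37 ± 0.26 (SE), and -0.47 ± 0.38 (SE) in the male libraries.

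The cytoplasmic ERK phosphatases were close between the groups. Dusp6 (ENSMUSG00000019960), a classical transcriptional target of ERK signalling, had 48.5, 52.2, 48.9, 45.8, 52.9 and 55.5 CPM in replicates 1 to 6 labelled cKO and 53.01, 65.3, 58.1, 57.2 and 42.5 CPM in WT replicates 1 to 5. WT spanned a wider range than the cKO-labelled libraries and held both the highest and the lowest value. The log2 fold change was -0.13 ± 0.09 (SE; 95% interval from -0.31 to 0.06), and -0.09 ± 0.13 (SE) in the male libraries. Dusp7 had 44.8 to 57.0 CPM among cKO-labelled libraries and 48.6 to 53.2 CPM in WT. Its log2 fold change was -0.02 ± 0.06 (SE; 95% interval from -0.14 to 0.10), and 0.01 ± 0.08 (SE) in the male libraries.

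Among the enzymes that prefer JNK and p38, Dusp8 (ENSMUSG00000037887) varied least. It had 187.7 to 200.3 CPM among cKO-labelled libraries and 189.7 to 207 CPM in WT. On the log2 scale the difference was -0.03 ± 0.04 (SE), and its 95% interval ran over 0.926- to 1.04-fold. In the male libraries it was -0.05 ± 0.06 (SE). Its promoter window is the one with 2 full CREs shown above. Dusp16 (ENSMUSG00000030203) had 14.8, 11.9, 13.8, 12.8, 14.5 and 11.1 CPM in replicates 1 to 6 labelled cKO and 14.4, 16.5, 15.1, 13.2 and 15.6 CPM in WT replicates 1 to 5. The groups overlapped through WT replicates 1 and 4, both female, and all 6 cKO-labelled libraries lay below the 2 male WT libraries. The log2 fold change was -0.19 ± 0.08 (SE) and moved to -0.29 ± 0.11 (SE) in the 8 male libraries. There, groups that did not overlap, lower in cKO, were found for 3.82% of all genes, with Dusp1 and Dusp16 among the members. Groups that did not overlap with the higher values in cKO were found for 3.41% of all genes and 0 members. Dusp10 had 2.31 to 4.29 CPM among cKO-labelled libraries and 3.40 to 4.50 CPM in WT, with a log2 fold change of -0.13 ± 0.14 (SE), and of -0.12 ± 0.20 (SE) in the male libraries.

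Dusp14 was the 1 member with a higher mean in the cKO-labelled libraries. It had 14.9 to 23.5 CPM there and 17.8 to 21.1 CPM in WT, and the log2 fold change was 0.08 ± 0.10 (SE). The lowest and the highest value both came from cKO-labelled libraries (replicates 1 and 4). In the 8 male libraries its log2 fold change was 0.18 ± 0.15 (SE).

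Single libraries moved the small differences. The log2 fold change of Dusp14 was 0.16 without replicate 1 labelled cKO and 0.04 without replicate 4 or replicate 6 labelled cKO. That of Dusp10 was -0.04 without replicate 5 labelled cKO, -0.06 without WT replicate 4 and -0.19 without replicate 1 labelled cKO. Dusp6 had -0.06 without WT replicate 2 and -0.21 without WT replicate 5. For Dusp4, with each library left out in turn, the values ran from -0.13 to -0.01, and for Dusp7 from -0.06 to 0.01, where it was just above 0 without replicate 1 or replicate 3 labelled cKO. For Dusp1 they ran from -0.74 to -0.59.

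**Figure D3:**
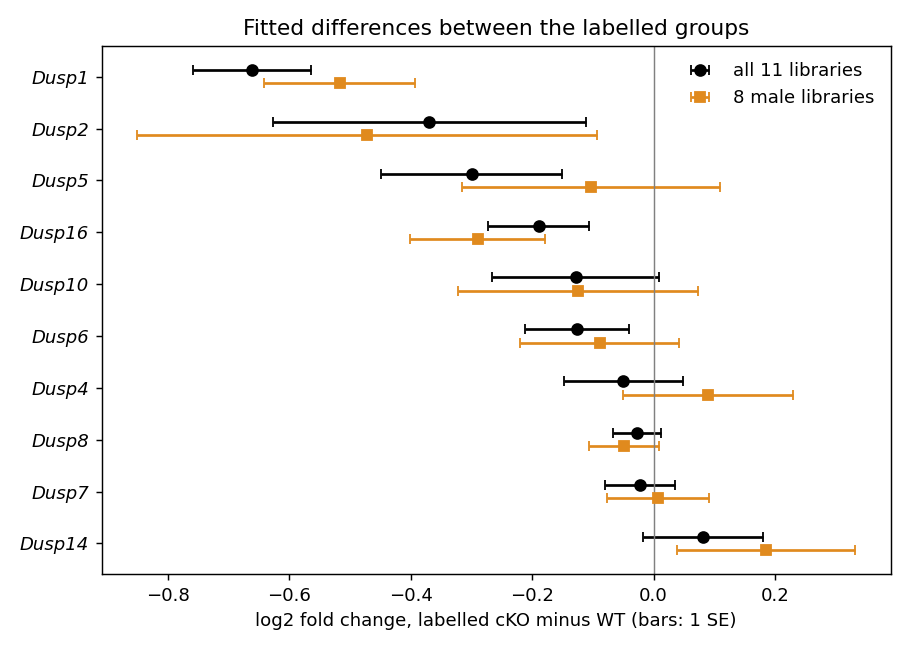
Fitted log2 fold change of each gene (labelled cKO minus WT, x axis) with bars of 1 SE, for all 11 libraries (black circles) and for the 8 male libraries (orange squares). Dusp1 lies farthest from 0 in both, at -0.66 and -0.52, while the values of Dusp4 and Dusp7 lie on opposite sides of 0 in the 2 fits.

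The summed level of the 10 genes was 99.9 ± 3.94 CPM per kb among cKO-labelled libraries and 105.8 ± 6.26 in WT (SD, n = 6 and 5). It ranged from 95.4 to 106.0 and from 95.2 to 111.4 CPM per kb, and WT replicate 5 had the lowest sum of all. The other 4 WT libraries had 106.4 CPM per kb or more, above every library labelled cKO. That separation holds only with WT replicate 5 set aside. Dusp1 made 4.23% of the summed level over the 11 libraries. Its part in the group difference is larger than that share, with means of 3.43 CPM per kb among cKO-labelled libraries and 5.42 in WT. Since the members were chosen with this contrast known, nothing is read from the sum.

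WT replicate 5 had outlying values in several members. It was the lowest of the 5 WT libraries for Dusp1, Dusp4, Dusp5, Dusp6 and Dusp14. Against the mean of the other 4 WT libraries its difference was -27.4% for Dusp1, -27.2% for Dusp4, -35.3% for Dusp5 and -27.2% for Dusp6. For Dusp2, also an inducible nuclear enzyme, it was instead the highest, at 0.778 CPM against 0.467 to 0.655 CPM, on few reads. For Dusp7, Dusp8, Dusp10 and Dusp16 it lay within the range of the other 4. Fos, the early-response transcription factor, was 8.79 CPM in this library, 15.3 to 18.7 CPM in WT replicates 1 to 4 and 6.83 to 11.1 CPM in those labelled cKO. The sum of 11 early-response genes (Fos, Fosb, Junb, Egr1, Egr2, Egr4, Nr4a1, Btg2, Ier2, Arc and Npas4) was 339 CPM there, 547 to 650 CPM in the other WT libraries and 301 to 402 CPM in those labelled cKO. Without WT replicate 5 the log2 fold changes were -0.74 for Dusp1, -0.41 for Dusp5, -0.21 for Dusp6 and -0.13 for Dusp4.

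**Figure D4:**
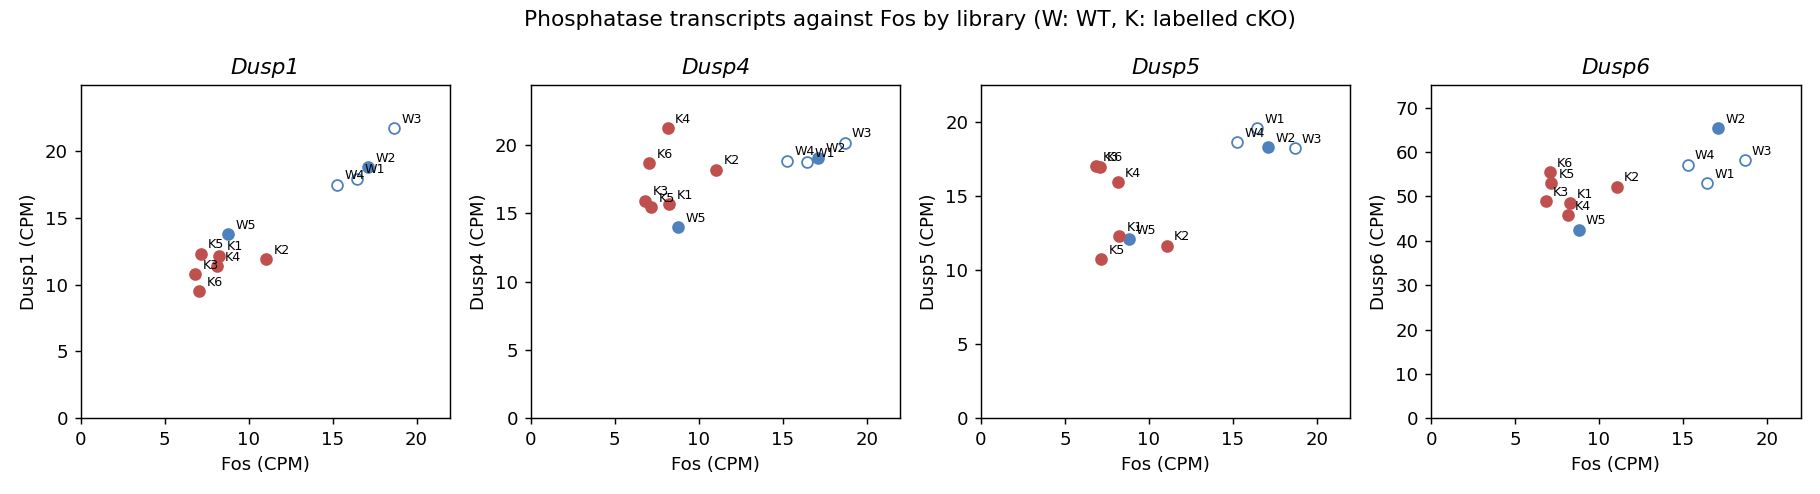
Dusp1, Dusp4, Dusp5 and Dusp6 (CPM, y axis) against Fos (CPM, x axis) in the 11 libraries, numbered by replicate (W for WT in blue, K for labelled cKO in red, open circles female). WT replicate 5, with Fos at 8.79 CPM, lies among the cKO-labelled libraries for Dusp5, next to them for Dusp1 at 13.8 CPM, and below them all for Dusp4 and Dusp6.

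How the members varied together was read after the group means were removed, so that the genotype difference does not enter. A sex difference within WT (3 female and 2 male libraries) was not removed. Over the 45 pairs the median Pearson r of log2 CPM was 0.08. Unadjusted, 6 pairs had p under 0.05 (2-sided exact permutation within groups, 11 libraries), and none passed adjustment over the 45, where the smallest adjusted p was 0.36 for r and 0.19 for Spearman's rho. The pair with the smallest p for r, Dusp14 and Dusp16, ran in opposite directions (r = -0.76, exact permutation p = 0.0111; rho = -0.81, exact permutation p = 0.00863). The r was -0.86 without the 2 libraries farthest from the median of Dusp14, and -0.78 in the 6 cKO-labelled libraries alone. Dusp7 and Dusp16 did likewise (r = -0.76, exact permutation p = 0.0161; rho = -0.73, exact permutation p = 0.0256), with -0.49 after leaving out the 2 farthest libraries. Dusp7 and Dusp14 varied in the same direction (r = 0.73, exact permutation p = 0.0404; rho = 0.74, exact permutation p = 0.0246), with 0.44 after that step. The other 3 pairs were positive too. Dusp8 and Dusp10 had the smallest p for rho of the 45 (r = 0.56, exact permutation p = 0.0483; rho = 0.77, exact permutation p = 0.00793), with r = 0.50 after that step. Dusp4 had r = 0.62 with Dusp14 (exact permutation p = 0.0308; rho = 0.66, exact permutation p = 0.041), with 0.65 after that step. With Dusp5 it had r = 0.69 (exact permutation p = 0.0407; rho = 0.54, exact permutation p = 0.113), with 0.24 after that step and 0.43 without WT replicate 5. When values were centred within group and sex, the median r over the 45 pairs was 0.05. Dusp14 with Dusp16 then had r = -0.74, and Dusp1 with Dusp16 moved from 0.30 to 0.63.

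With Fos, Dusp1 had the highest within-group r of the 10 members (r = 0.80, exact permutation p = 0.0123; rho = 0.69, exact permutation p = 0.0252; adjusted over 10 pairs 0.12 and 0.25). Dusp4 had r = 0.71 and rho = 0.40 (exact permutation p = 0.0501 and 0.234), and Dusp6 r = 0.65 and rho = 0.39 (exact permutation p = 0.115 and 0.25). The values with Fos rested largely on 1 library. Without the 2 libraries farthest from the median of the phosphatase the r was 0.47 for Dusp1, 0.30 for Dusp4 and 0.06 for Dusp6. Without WT replicate 5 the r with Fos was 0.53 for Dusp1, 0.33 for Dusp4 and 0.02 for Dusp6, and it turned from 0.31 to -0.46 for Dusp5. Dusp7, Dusp8 and Dusp10 had r between -0.03 and 0.02 with Fos over the 11 libraries. Some values with other early-response genes, picked as examples and given as a description, kept their sign without WT replicate 5. The r of Dusp1 with Egr1 was 0.88 with that library and 0.73 without it, and that of Dusp6 with Arc was 0.88 and 0.65. For Dusp2, on few reads, the r with Egr1 was negative with and without that library (-0.69 and -0.72). Others fell near 0 or changed sign without WT replicate 5. Such pairs were Dusp1 with Junb (0.60 and -0.12) and with Egr4 (0.58 and -0.06), Dusp4 with Egr2 (0.65 and 0.01) and Dusp6 with Egr1 (0.51 and -0.32).

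**Figure D5:**
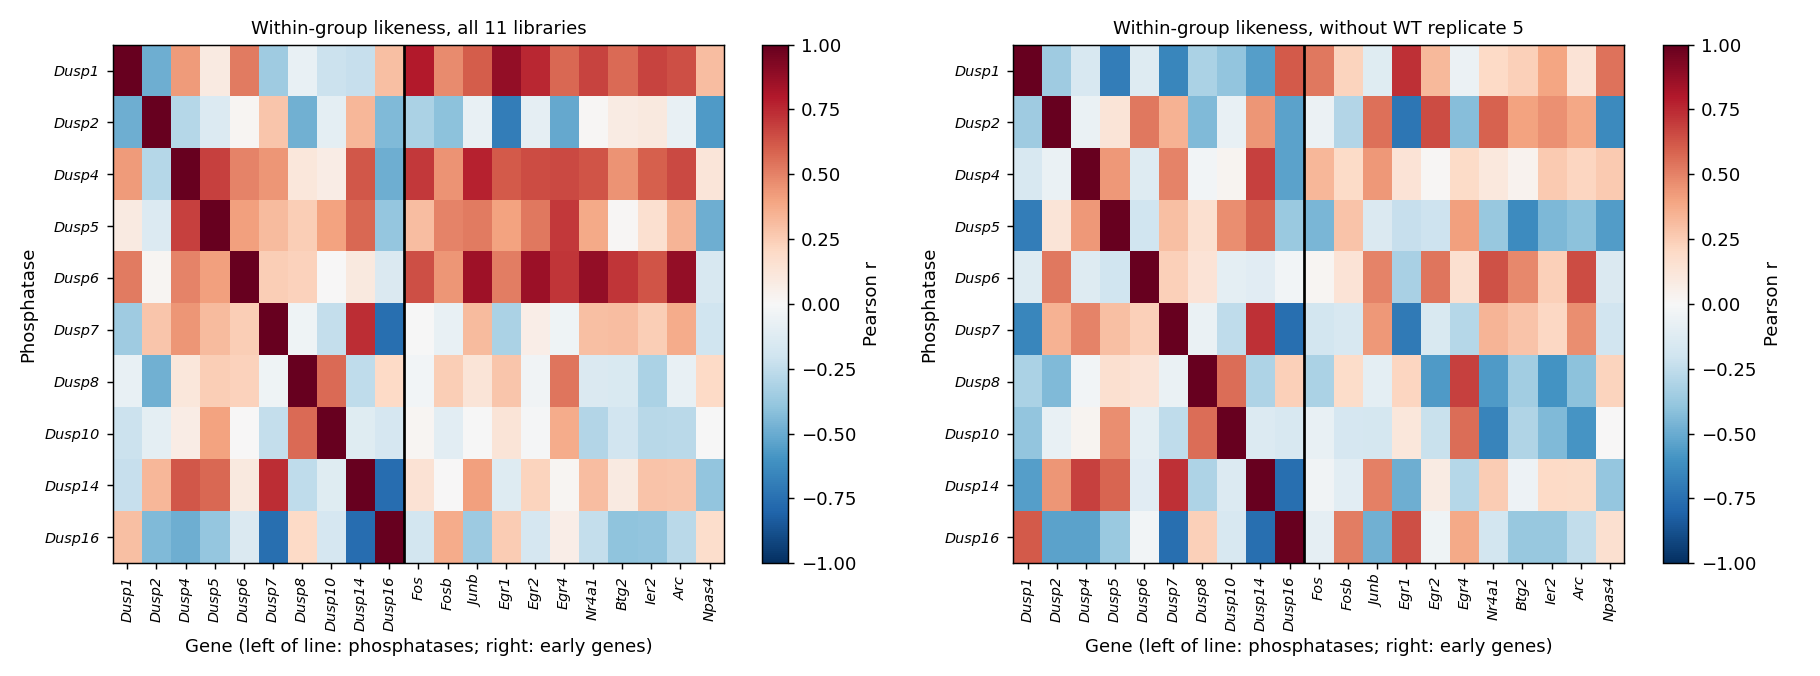
Pearson r of log2 CPM centred within each labelled group, for the 10 phosphatases (rows) against each other and 11 early-response genes (columns), over 11 libraries (left) and without WT replicate 5 (right). The warm block of Dusp1, Dusp4 and Dusp6 with the early-response genes on the left is mostly weaker on the right (Dusp1 with Fos 0.80 and 0.53, Dusp6 with Fos 0.65 and 0.02). Some of its values turn negative there (Dusp6 with Egr1 0.51 and -0.32), while the negative values of Dusp16 with Dusp7 and Dusp14 stay.

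By the same measure over all genes tested, the 5 genes most like Dusp1 were Gm26560 (r = 0.93), Mdrl (0.91), Paox (0.90), Kbtbd8 (0.90) and Chtop (0.89). Gm26560 and Mdrl had group means of only 0.48 to 0.59 CPM, about as low as Dusp2, so their r rests on few reads. The 3 nearest to Dusp4 were Rnf130, Tcp11l2 and Rell1 (r = 0.96, 0.93 and 0.93), the 2 nearest to Dusp5 Cacna2d4 and Bcl2l13 (0.94 and 0.92), and the 3 nearest to Dusp6 Insig2, Lsm14a and Snrpd1 (0.96, 0.92 and 0.91). None was an early-response gene or another phosphatase of the family. With 11 libraries and this many genes such values are a ranking only.

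The spread between replicate libraries differed among the members. The biological coefficient of variation, the replicate spread beyond counting noise, was 17.0% for Dusp5 against 10.03% for genes of like abundance, and 10.03% for Dusp6 against 7.47%. For Dusp8 it was 5.33% against 7.40%. Dusp1 had 11.4% against 10.4%, and its ratio of the 2 values stood at percentile 82.4 of all genes. Dusp4 stood at 88.6, Dusp14 at 90.2, Dusp6 at 92.9 and Dusp5 at 96.8.

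Other genes of the pathway gave no call. Of 133 genes in 10 lists (kinases of the 3 tiers, Ras proteins, receptors, other phosphatases, feedback inhibitors, outputs) 125 were tested, and 0 passed when edgeR's p was adjusted over all 16587 genes, with a smallest adjusted p of 0.44 (Elk3). At an unadjusted p under 0.05 there were 20 (16%), 14 lower and 6 higher, beside 9.19% of all genes. In the 8 male libraries there were 8 of 126 (6.35%), beside 5.58% of all genes.

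Closest to the members are the other dual-specificity phosphatases, of which 9 of 12 tested had lower values, with a median log2 fold change of -0.04. Dusp15 was at -0.26 ± 0.10 and Dusp12 at -0.20 ± 0.08 (log2 ± SE). Of the MAP kinases 7 of 13 had lower values (median 0.00). The smallest p there belonged to Mapk11, which encodes p38 beta (-0.19 ± 0.07), and Mapk7, which encodes ERK5 (-0.16 ± 0.06; log2 ± SE). In the male libraries Mapk7 was at -0.05. In the tier above, Map2k6, a kinase that activates p38, had 15.6 ± 0.502 CPM among cKO-labelled libraries and 13.99 ± 0.639 CPM in WT (SD, n = 6 and 5). All 6 values labelled cKO lay above WT, as for 0.404% of all genes, with a log2 fold change of 0.15 ± 0.06 (SE; edgeR adjusted p = 0.44). Among MAP3 kinases and Raf 17 of 19 had lower values, beside 50% of all genes, with a median log2 fold change of -0.07. That count was not tested, and sex and genotype are partly confounded in it too.

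Feedback inhibitors and outputs of ERK had medians near 0. Of Sprouty, Spred and related inhibitors 6 of 9 had lower values (median -0.05), with Spry1 at -0.29 ± 0.12 and Spry4 at -0.19 ± 0.09 (log2 ± SE). Of 8 ERK output transcripts 5 had lower values (median -0.02), with Etv4, an ERK-induced transcription factor, at -0.26 ± 0.15 (log2 ± SE). Of the phosphatases outside the family 2 of 7 had lower values, and Ptpn5, a tyrosine phosphatase of neuronal ERK, was at 0.08 ± 0.05 (log2 ± SE). Growth factor receptors had 8 of 14 lower (median -0.01), with Ntrk2 at 0.11 ± 0.04 (log2 ± SE) and at 0.06 in the male libraries. Ras and its regulators had 8 of 21 lower (median 0.02), with Nras at 0.12 ± 0.05. Kinases and factors downstream had 6 of 17 lower (median 0.05), with Elk3, a repressor of the ETS family, at 0.24 ± 0.08 (log2 ± SE).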

How the data were processed

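RNA sequencing of 11 hippocampal libraries was used, with groups taken from the genotype in the labels. The authors deposited raw integer counts for each Ensembl gene ID, which were used as deposited. Per the labels' protocols the libraries were strand-marked. Per the submitters' processing notes the build was mm10 and bcl2fastq 2.17.1.14 was used, while the sources used here name no aligner, counter, annotation or strand setting. Of 30681 genes 30566 matched a symbol. Coordinates and lengths are from GENCODE M21 (mm10).

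Low-count genes were dropped by filterByExpr, and libraries scaled by TMM factors. CPM are relative to scaled totals. Genotypes were compared for all genes by quasi-likelihood in edgeR (glmQLFTest, 2-sided), with Benjamini-Hochberg adjustment (R 4.3.3, edgeR 4.0.16). The SE was derived from each fold change and its F. Within-group likeness used log2 CPM with a prior count of 2, and 86400 permutations within groups. A library was called female above 100 CPM of Xist with under 20 CPM of Y-linked genes. The depth, 24001828 to 35674490 counts per library, gave a median standard error of 0.08 on the log2 scale. No 2 replicates were alike within sampling noise (smallest chi-square per degree of freedom 5.31).

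The members and lists were chosen with earlier results of these data known. Named genes are the members, genes among the 3 of smallest p in each pathway list, and the genes most like Dusp1, Dusp4, Dusp5 and Dusp6. Alternatives were other scaling and filters, DESeq2 1.42.0, limma-voom (limma 3.58.1), a replicate block, each library left out, the male libraries and a sex term. The fits were tested on simulated data. All columns of the deposited table were used, and some pathway and similar genes that the rule for named genes selects are not reported here.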

Additional observations from a re-analysis of the deposited data

Results flagged for a closer look

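In each group of 5 or 6 libraries a value was marked where its gap to the next, divided by the range of the group, exceeded Dixon's 95% critical value (0.71 for 5 libraries and 0.625 for 6). Of 20 groups (10 genes in both labelled genotypes) 2 were marked, both in WT replicate 5. Dusp4 had 13.98 CPM there, below 18.7 to 20.2 CPM in the other 4 WT libraries. Dusp5 had 12.1 CPM there, below 18.2 to 19.6 CPM. Chance marks about 1 in 20 groups, and both marks fall on 1 library.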

How the results depend on the processing

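The number of genes called by edgeR was 0, and 1 with library totals only, 3 with no filter on low counts, 67 by DESeq2 and 0 to 14 with each library left out (14 without WT replicate 5, 2 without WT replicate 2 and 1 without WT replicate 1). With the male libraries only, or a sex term, it was 0. Of the genes at an unadjusted p under 0.05, 887 were lower and 637 higher, against 1388 and 262 with library totals only. No pathway gene was called under any alternative run. The 20 pathway genes at an unadjusted p under 0.05 became 8 in the male libraries, 11 with a sex term, and 10 to 21 with each library left out (10 without WT replicate 4, 11 without WT replicate 3, 12 without WT replicate 5 and 13 without replicate 3 labelled cKO). The number of members with a lower value was 7 to 9 under every alternative, and the median r between members was -0.07 to 0.14. The order of mean levels per length over both groups was the same under all 12 alternatives tried. Only the longest transcript changed the length, and the rest left out each library in turn. Within WT the place of Dusp1 against Dusp4 and Dusp5 depended on the length. Dusp1 stayed lower under all 21 alternatives, from -0.74 (without WT replicate 5) to -0.52 (male libraries). With the replicate number as a replicate block, 0 genes were called, and 14 pathway genes had an unadjusted p under 0.05. The labels do not say that the numbers pair the libraries. The r of same-numbered deviations was -0.32 to 0.21 over 5 pairs, and 1 of 5 cKO-labelled libraries correlated best with its own number. So few pairs cannot settle whether same-numbered libraries share an origin. Dusp2, with 8 to 24 reads per library, is limited by depth and was not tested with a mean of at least 1 CPM.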
